A study of Mus musculus with 6 samples.

Results

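The genes described here are the genes of the histone variant H3.3 and the chaperones that carry H3.3 or any H3 to chromatin. They are *H3f3a* and *H3f3b*, which encode H3.3, *Hira*, *Ubn1* and *Cabin1* of the HIRA complex, *Daxx* and *Atrx*, *Asf1a* and *Asf1b*, and *Dek*. Probes were taken as theirs when the RefSeq accession that the scanner files give for a probe belonged to the gene. All 10 genes were found, with 22 probes, among 22911 named genes and 56605 probes of the array that are not controls. The rule names genes by function and uses no measured value, and every probe is described.

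H3.3 is made outside as well as during DNA replication, and separate complexes place it into chromatin at different sites. HIRA, with UBN1 and CABIN1, places it at active genes and regulatory elements, whereas DAXX holds H3.3 with H4 and works with the chromatin remodeler ATRX at telomeres, pericentromeric repeats and silent repeat elements. ASF1 is the donor that hands H3 with H4 to the HIRA complex and to the replication-coupled assembly factor CAF-1. DEK is a chromatin protein with histone chaperone activity that restrains where H3.3 goes. In the brain, the K27M change of H3.3 marks a class of diffuse midline glioma and lowers trimethylation at lysine 27, and loss of ATRX is a familiar event in gliomas with changed H3.3.

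RNA was measured in 3 dishes of WT cells (labelled OS3-vector) and in 3 dishes of IG27 cells (labelled OS3-H3F3A_K27M), each harvested after 2 days in culture and hybridized with Cy3 to 1 single-color Agilent mouse array. OS3 is a glial line from newborn male mouse brain, of strain C3H by the labels and C3H/HeN by the methods, that was immortalized with SV40, so both groups carry SV40. WT cells carried the empty pcDNA3.1 plasmid, and IG27 cells carried the plasmid with the coding sequence of *H3f3a* changed to encode H3.3K27M. This plasmid uses a viral promoter, the cells keep their own *H3f3a* and *H3f3b*, and lines were set up as clones by drug selection. The labels do not give how many clones the dishes of a group came from, and the dishes are the replicates, so p-values measure the spread between dishes and not between independently made lines. An effect of the mutation and a difference between clones cannot be told apart here.

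The change carried by the plasmid is shown by the designed forward primer of the second fragment, 35 bases long. The capitals mark the codon at bases 7 to 9 that replaces lysine 27 of H3.3 by methionine, and 15 of its bases overlap the other fragment.

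H3f3a-K27M primer: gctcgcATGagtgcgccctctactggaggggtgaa

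The scanner files give neither the sequence nor the position of a probe. Whether any probe of *H3f3a* lies in the coding sequence, which the plasmid shares with the gene, was therefore not tested, and none of them separates the mutated codon from the normal one by any label in the files.

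The starts of *H3f3a* and *H3f3b*, and those of *Asf1a* and *Asf1b*, are shown because each pair encodes the same or a closely related protein and the brightest probes of its members differed between the groups in opposite directions. All 10 genes have such windows. Each window holds 250 bases before and 50 bases after a transcript start of RefSeq (build GRCm38.p6) and is written 5′ to 3′ on the strand of the gene. Capitals mark the CCAAT box, the motif TATAAA of the TATA box and the motif TTTGAA, each searched on both strands.

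H3f3a, chr1:180813556-180813855, minus strand: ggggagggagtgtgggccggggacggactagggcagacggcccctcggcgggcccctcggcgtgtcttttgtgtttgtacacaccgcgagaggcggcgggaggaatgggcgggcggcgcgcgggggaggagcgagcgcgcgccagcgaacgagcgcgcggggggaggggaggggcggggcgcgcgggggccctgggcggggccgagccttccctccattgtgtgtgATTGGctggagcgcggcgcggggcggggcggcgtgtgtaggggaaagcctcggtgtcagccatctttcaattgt
H3f3b, chr11:116024455-116024754, minus strand: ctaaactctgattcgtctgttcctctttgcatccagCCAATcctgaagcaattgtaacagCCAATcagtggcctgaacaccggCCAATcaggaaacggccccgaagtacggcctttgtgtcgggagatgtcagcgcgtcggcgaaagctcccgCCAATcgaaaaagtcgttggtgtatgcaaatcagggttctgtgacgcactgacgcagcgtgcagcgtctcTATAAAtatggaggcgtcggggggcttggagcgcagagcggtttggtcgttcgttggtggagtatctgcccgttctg
Asf1a, chr10:53596711-53597010, plus strand: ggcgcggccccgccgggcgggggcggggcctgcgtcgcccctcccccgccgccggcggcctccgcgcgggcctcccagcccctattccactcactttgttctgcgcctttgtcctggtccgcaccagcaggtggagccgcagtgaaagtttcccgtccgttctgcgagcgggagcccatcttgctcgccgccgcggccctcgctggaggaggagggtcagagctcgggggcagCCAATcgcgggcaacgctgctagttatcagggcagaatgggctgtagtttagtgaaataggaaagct
Asf1b, chr8:83955444-83955743, plus strand: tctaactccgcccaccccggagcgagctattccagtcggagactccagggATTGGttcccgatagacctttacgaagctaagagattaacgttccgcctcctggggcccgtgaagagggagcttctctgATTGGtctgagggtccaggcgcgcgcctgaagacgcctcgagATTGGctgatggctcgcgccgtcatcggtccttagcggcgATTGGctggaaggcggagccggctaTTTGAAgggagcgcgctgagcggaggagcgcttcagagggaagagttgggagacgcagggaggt

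The windows of the H3.3 genes differ in these letters. *H3f3b* holds CCAAT 4 times, at positions -214 to -97 from the start, and TATAAA once, at position -27. *H3f3a* holds CCAAT once, and GGGCGG, the core of a GC box, 6 times, against none in *H3f3b*. Of these 6 matches, those at positions -144 and -140 share bases with each other, as do those at -4 and 2. *Asf1b* holds CCAAT 4 times and TTTGAA, the core of the element called CHR in cell cycle genes, once, at position -14, whereas *Asf1a* holds CCAAT once and no TTTGAA. Of 32851 such windows of all genes, 37.4% hold CCAAT on either strand, 13.6% TATAAA, 17.9% TTTGAA and 35.7% GGGCGG. No 2 of the different motifs overlapped in these windows. A match describes letters only, and no binding was measured.

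Values below are normalized log2 intensities, the log2 of the signal of a probe minus the 75th percentile of its array, so that 0 is the signal at that percentile. A difference is IG27 minus WT on this log2 scale. A gene or probe is called where limma gives an adjusted p under 0.05 over all 34058 probes tested. Brightness also depends on the probe, so levels of different genes are not set against each other. Where a gene has several probes, the brightest stands for it in counts.

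Called differences were common on this array. Of 14897 genes tested, 68.8% were called, 29.7% higher and 39% lower in IG27 cells, and 23.1% were called with a change of at least 2-fold. Against that background 5 of the 10 genes (50%) were called, with *H3f3b* and *Asf1a* higher and *H3f3a*, *Atrx* and *Asf1b* lower, and none of the 10 was called with a 2-fold change. By probe, 8 of 19 tested (42.1%) were called against 64.2% of all probes (30.8% higher and 33.4% lower), and 3 of the 8 were higher and 5 lower. Of all called probes 48% were higher, and this share was 30.4% with the median of each array as the scale. The median absolute difference of the 10 genes was 0.25, and it was 0.47 over all genes tested. For 6 of the 10 genes the values of the groups did not overlap, which held for 75.8% of all genes.

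**Figure D1:**
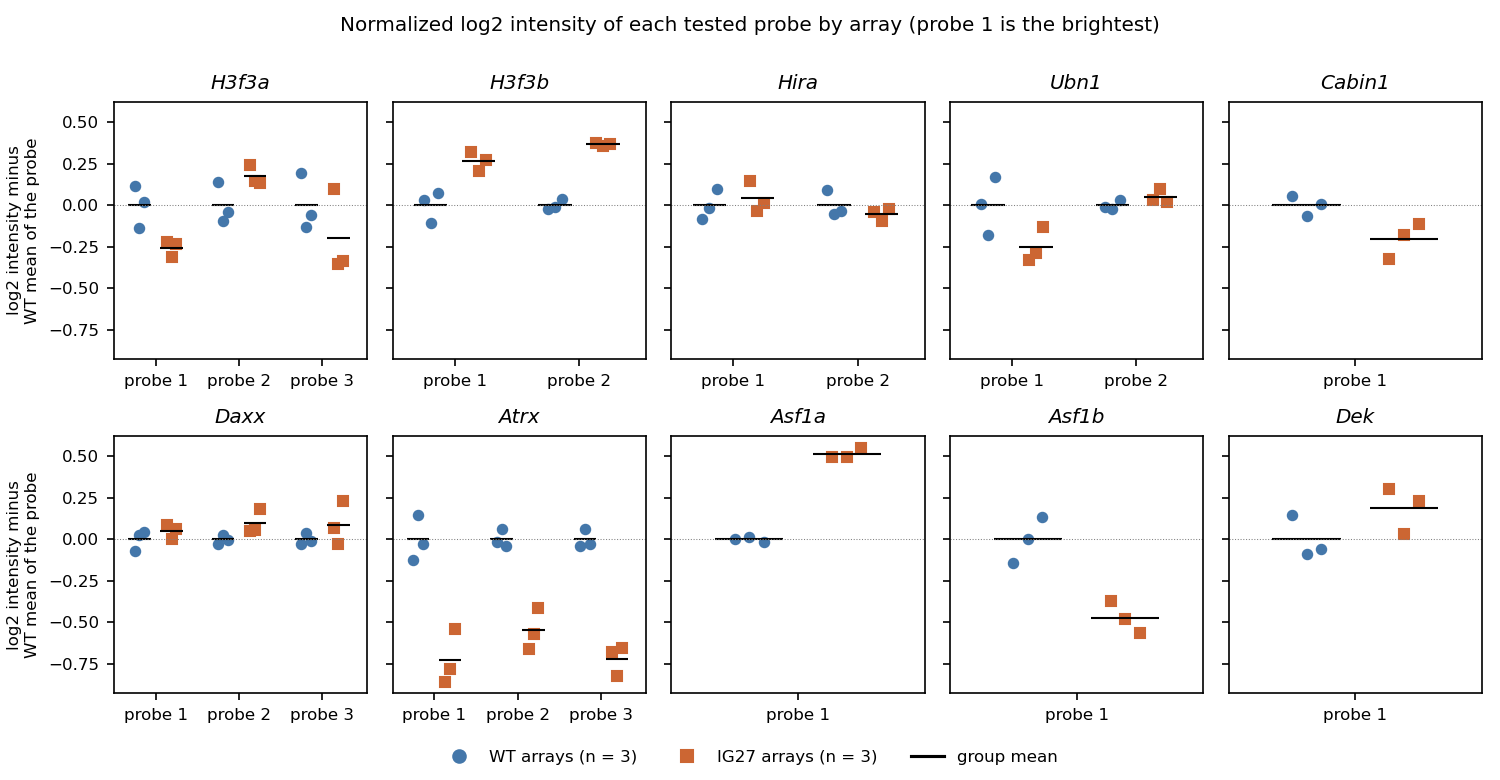
Normalized log2 intensity of the 19 tested probes of the 10 genes on each array, each probe centered on its WT mean, with 3 WT arrays (circles), 3 IG27 arrays (squares) and group means (lines). All 3 *Atrx* probes sit lower on every IG27 array, both *H3f3b* probes and the *Asf1a* probe sit higher, and the *H3f3a* probes do not move together.

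*H3f3a*, the gene whose coding sequence the plasmid carries, read slightly lower in IG27 cells on its brightest probe. That probe, A_55_P2846347, gave 6.96, 6.70 and 6.85 on the WT arrays and 6.61, 6.52 and 6.61 on the IG27 arrays. Every IG27 array was below every WT array. The difference was -0.26 ± 0.08 (SE, n = 3 and 3, adjusted p = 0.0314). The other 2 probes did not behave alike. The second probe gave 5.35, 5.12 and 5.17 in WT cells and 5.45, 5.36 and 5.35 in IG27 cells, a difference of 0.17 in the other direction that was not called (adjusted p = 0.104) and turned to -0.07 with the median of each array as the scale. WT replicate 1 lay among the IG27 arrays there. The third, a dim probe at 31.9 to 49.3 units of signal, gave -4.44, -4.77 and -4.69 against -4.54, -4.98 and -4.97, and its groups overlapped (difference -0.20, adjusted p = 0.297).

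The call on *H3f3a* did not hold well. It was lost on leaving out WT replicate 1 (-0.20, adjusted p = 0.0827), WT replicate 3 (-0.25, adjusted p = 0.0819), IG27 replicate 1 (-0.27, adjusted p = 0.0593), IG27 replicate 2 (-0.23, adjusted p = 0.0948) or IG27 replicate 3 (-0.27, adjusted p = 0.0637), and was kept without WT replicate 2. With the mean of its probes the difference was -0.09 (adjusted p = 0.403). On none of the 3 probes was a higher level in IG27 cells called at the settings used here, and over 18 alternative settings the second probe was called higher in 3 and the dim probe lower in 3.

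*H3f3b*, which encodes the same H3.3 protein from another gene, read higher in IG27 cells on both of its probes. Its brightest probe gave 6.85, 6.71 and 6.89 in WT cells and 7.14, 7.02 and 7.09 in IG27 cells. The second probe gave 6.34, 6.35 and 6.40 against 6.74, 6.72 and 6.73. On each probe the lowest IG27 array was above the highest WT array. The differences were 0.26 ± 0.07 (SE, adjusted p = 0.0165) and 0.37 ± 0.05 (SE, adjusted p = 9.72e-04), which are changes of 1.20-fold and 1.29-fold. The brightest probe kept its call on leaving out any of the arrays in turn, with differences of 0.21 to 0.30. It was not called with the median of each array as the scale (0.03, adjusted p = 0.825). There the median difference of all probes tested moved from -0.0035 to -0.24. This change of scale moves all probes alike, so the difference relative to that median (0.27) is the same under both by construction. The second probe was at 0.13 with that scale and was not called either.

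Taken within each array, the difference between the brightest probes of *H3f3b* and *H3f3a* does not depend on the scale of the array. It was -0.11, 0.01 and 0.04 in WT cells and 0.52, 0.50 and 0.48 in IG27 cells. The groups were far apart for their spread, at -0.02 ± 0.08 and 0.50 ± 0.02 (SD, n = 3 each), a shift of 0.52 or 1.44-fold. Over the 6 pairings of an *H3f3b* with an *H3f3a* probe the shift ran from 0.09 to 0.62, was positive in all 6 and had no overlap of arrays in 5, the exception being the brightest *H3f3b* probe against the second *H3f3a* probe. An exact two-sided permutation test gave p = 0.1, the smallest that 3 arrays against 3 allow. Of 3 pairs of genes compared this way, each gave this p (0.1 after Benjamini-Hochberg adjustment over the 3).

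**Figure D2:**
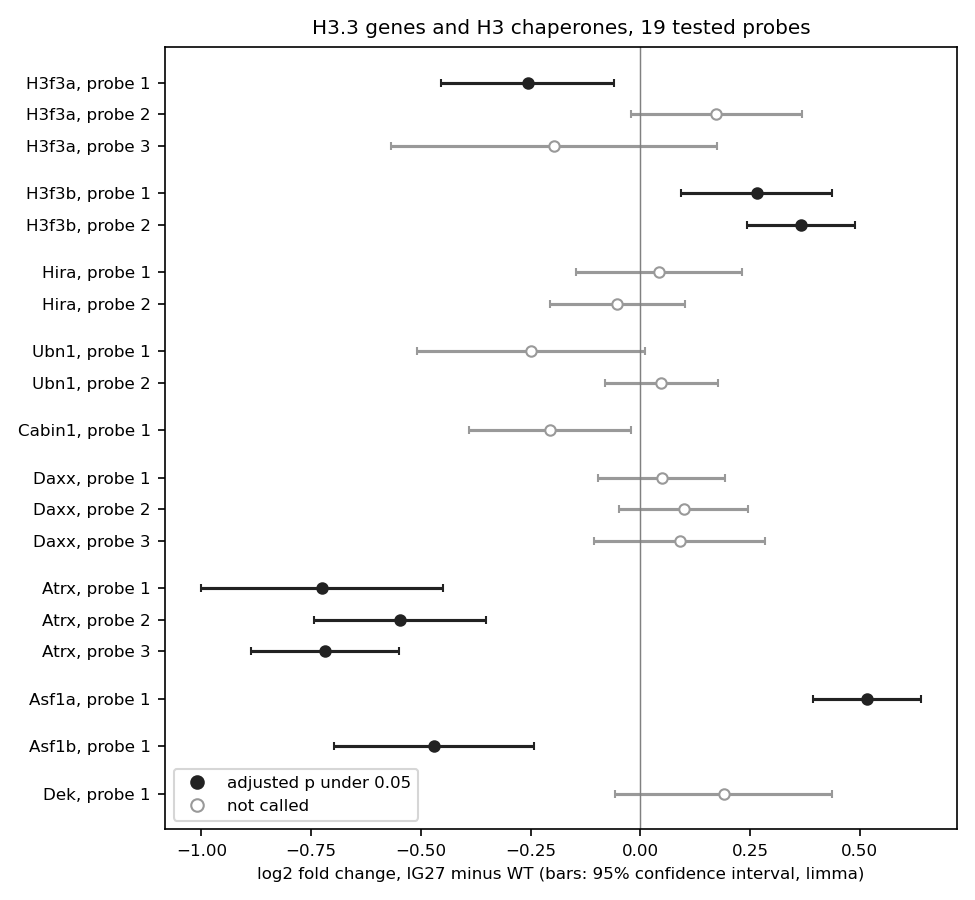
Difference of each of the 19 tested probes (log2, IG27 minus WT) with its 95% confidence interval from limma, before adjustment for many tests, with filled points for an adjusted p under 0.05. The 3 *Atrx* probes lie at -0.73 to -0.55 and *Asf1a* at 0.52, whereas the intervals of the *Hira*, *Ubn1*, *Daxx* and *Dek* probes include 0.

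No subunit of the HIRA complex was called at the settings used here, but with the median of each array as the scale a probe of each of the 3 subunits was called lower. *Hira*, the subunit after which the complex is named, gave 2.80, 2.86 and 2.97 in WT cells and 3.02, 2.85 and 2.89 in IG27 cells. The arrays of the groups were intermixed, and the difference was 0.04 with a 95% interval of -0.15 to 0.23 (adjusted p = 0.653). It was -0.20 with the median of each array as the scale. The second *Hira* probe differed by -0.05 (adjusted p = 0.498), with groups that overlapped as well, and was called at -0.29 with the median of each array as the scale.

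*Ubn1*, the subunit that binds H3.3 itself, gave 3.19, 3.00 and 3.35 in WT cells and 2.85, 2.89 and 3.05 in IG27 cells. The groups overlapped by WT replicate 2 and IG27 replicate 3 alone. The difference was -0.25 with an interval of -0.51 to 0.01 (adjusted p = 0.0831), and without WT replicate 2 it was called at -0.34 (adjusted p = 0.0291). With the median of each array as the scale it was called at -0.49 (adjusted p = 0.0154). Its second probe did not follow, with 1.14, 1.13 and 1.18 against 1.18, 1.24 and 1.16 (difference 0.05, adjusted p = 0.46).

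*Cabin1*, the remaining subunit, gave 1.89, 1.77 and 1.84 in WT cells and 1.51, 1.66 and 1.72 in IG27 cells on the 1 probe that could be tested. All IG27 arrays were below all WT arrays. The difference was -0.21 with an interval of -0.39 to -0.02 and missed the threshold (adjusted p = 0.0523), and without IG27 replicate 3 it was called at -0.25 (adjusted p = 0.0417). It was called in 7 of the 20 alternative settings, at -0.45 with the median of each array as the scale (adjusted p = 0.00667) and with adjusted p of 0.0256 to 0.0457 in the others that give one. The other 3 *Cabin1* probes were well above background, a flag of the scanner software, on 1, 2 and 0 of the 5 arrays that carry the flag, and were not tested. Their signals ran from 4.46 to 50.2 units, with values of -7.79 to -4.45.

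*Atrx* had the largest difference of the 10 genes. The ATRX protein is a chromatin remodeler that works with DAXX to place H3.3 at repeats. Its brightest probe gave 3.63, 3.90 and 3.72 in WT cells and 2.89, 2.97 and 3.21 in IG27 cells. Every IG27 array was well below every WT array. The difference was -0.73 ± 0.11 (SE, interval -1.0 to -0.45, adjusted p = 0.00173), a 1.65-fold lower signal. The second probe gave 2.17, 2.25 and 2.15 against 1.53, 1.63 and 1.78, a difference of -0.55 (adjusted p = 0.00135). The dimmest gave -0.64, -0.54 and -0.62 against -1.28, -1.42 and -1.25, a difference of -0.72 (adjusted p = 1.99e-04). All 3 probes thus gave the same direction with no overlap of arrays. *Atrx* kept its call under each of the 20 alternative settings, of which 1 takes the mean of its probes, with differences of -0.96 to -0.57.

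The X chromosome, which holds *Atrx*, read lower as a whole in IG27 cells. Of its 513 genes tested, 62.8% were called lower and 19.5% higher, with a median difference of -0.59, against -0.07 over all genes. *Atrx* lay 0.13 below the median of its chromosome, and was number 213 of the 513 genes from the lowest difference up. The part of this chromosome-wide shift in the value of *Atrx* was not tested. As RNA was taken from whole dishes, fewer cells with the RNA and less RNA per cell cannot be told apart, for this gene or for any other here.

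*Daxx*, the H3.3 chaperone that partners ATRX, showed no called change on any of its 3 probes. The brightest gave 3.78, 3.87 and 3.90 in WT cells and 3.93, 3.85 and 3.91 in IG27 cells, and the difference was 0.05 with an interval of -0.10 to 0.19 (adjusted p = 0.505). The arrays of the groups overlapped. The second probe gave 3.37, 3.42 and 3.39 against 3.44, 3.45 and 3.58, with no overlap but a difference of 0.10 that was not called (adjusted p = 0.2). The third differed by 0.09 (adjusted p = 0.361). With the median of each array as the scale the brightest probe turned to -0.19, which was not called.

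Within an array, *Daxx* minus *Atrx* by brightest probe was 0.15, -0.02 and 0.18 in WT cells and 1.04, 0.88 and 0.70 in IG27 cells. The groups did not overlap, and the shift of 0.77 was a change of 1.71-fold in the ratio of the signals (exact permutation p = 0.1, the smallest possible). It ran from 0.60 to 0.82 over the 9 pairings of their probes, with no overlap in any of them. A shift in this ratio says that the signals changed unequally, whatever the scale of the array.

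*Asf1a* and *Asf1b* encode the ASF1 chaperones, of which ASF1A works mainly with HIRA and ASF1B mainly in dividing cells. The pair moved in opposite directions. *Asf1a* gave -1.39, -1.38 and -1.41 in WT cells and -0.90, -0.90 and -0.84 in IG27 cells on its 1 probe. The arrays of each group were nearly equal to each other and the groups lay far apart. The difference was 0.52 ± 0.05 (SE, interval 0.39 to 0.64, adjusted p = 2.17e-04), a 1.43-fold higher signal. *Asf1b* gave 4.39, 4.54 and 4.67 in WT cells and 4.17, 4.06 and 3.97 in IG27 cells, also on 1 probe. Every IG27 array was below every WT array, by a difference of -0.47 ± 0.09 (SE, interval -0.70 to -0.24, adjusted p = 0.00504), a 1.39-fold lower signal.

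Both calls were kept under each of the 20 alternative settings, at 0.28 to 0.53 for *Asf1a* and at -0.71 to -0.34 for *Asf1b*. *Asf1a* minus *Asf1b* within an array was -5.79, -5.92 and -6.08 in WT cells and -5.06, -4.96 and -4.82 in IG27 cells. The shift between the groups was 0.99, or 1.98-fold, with no overlap (exact permutation p = 0.1, the smallest possible). A constant difference in brightness between the probes cancels in the shift, but with 1 probe for each gene its dependence on the probe was not tested.

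*Asf1b* lies on chromosome 8, where the median of 769 genes tested was -0.67, with 73.9% called lower and 8.45% higher. *Asf1b* was 0.20 above that median, and was number 501 of the 769 genes from the lowest difference up. Of a list of 12 genes of dividing cells 7 were called lower (58.3%), 2 higher (16.7%) and 3 not, beside 39% and 29.7% of all genes. The median of the list was -0.44, against -0.07 over all genes. Its largest fall was that of *Ccna2*, cyclin A2, with 5.22, 5.24 and 5.32 in WT cells and 3.89, 3.92 and 3.83 in IG27 cells, a difference of -1.38. *Rrm2*, a subunit of ribonucleotide reductase, fell by 0.66, whereas *Tyms*, thymidylate synthase, and *Mcm3*, of the replicative helicase, were higher by 0.25 and 0.24. The part of either shift in the value of *Asf1b* was not tested. *Asf1a* lies on chromosome 10, whose median of 682 genes was 0.08, and was 0.43 above it.

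**Figure D3:**
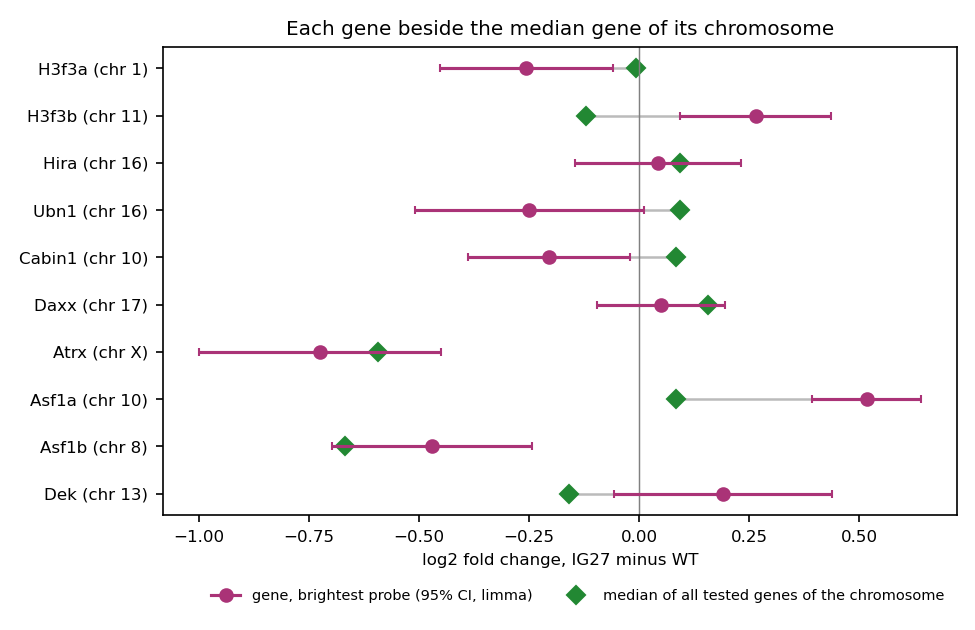
Difference of each gene by brightest probe (log2, IG27 minus WT, circles, with the 95% confidence interval of limma) beside the median difference of all genes tested on its chromosome (diamonds). The medians of the X chromosome and of chromosome 8 lie at -0.59 and -0.67, with *Atrx* 0.13 below and *Asf1b* 0.20 above. *Hira* and *Daxx* lie 0.05 and 0.11 below theirs, and *H3f3a*, *Cabin1* and *Ubn1* 0.25 to 0.34 below. *Dek*, *H3f3b* and *Asf1a* lie 0.35 to 0.43 above theirs.

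*Dek*, whose product binds chromatin and H3.3, gave 5.06, 4.83 and 4.86 in WT cells and 5.22, 4.95 and 5.15 in IG27 cells. WT replicate 1 lay above IG27 replicate 2, so the groups overlapped. The difference was 0.19 with an interval of -0.06 to 0.44 (adjusted p = 0.147), and it was -0.05 with the median of each array as the scale. On chromosome 13, its own, the median of 565 genes was -0.16.

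The remaining chromosome medians ran from -0.12 to 0.16. *H3f3b* was 0.39 above the median of chromosome 11 (-0.12, 1245 genes) and *H3f3a* was 0.25 below that of chromosome 1 (-0.007, 847 genes). *Hira* and *Ubn1* share chromosome 16, with a median of 0.09 over 462 genes, and *Daxx* lies on chromosome 17, with a median of 0.16 over 764 genes.

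None of the 10 genes stood out among all genes by the size of its difference. Of all genes tested, 65.8% had an absolute difference no larger than that of *Atrx*, 53.5% than that of *Asf1a* and 50.3% than that of *Asf1b*. For *H3f3a* and *H3f3b* these shares were 31.6% and 32.5%. They were 30.9% for *Ubn1*, 25.9% for *Cabin1*, 24% for *Dek*, 6.63% for *Daxx* and 5.72% for *Hira*. The spread between dishes was no larger for these probes than for others, with a median pooled SD of 0.09 (0.02 to 0.22) against 0.11 over all probes tested.

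**Figure D4:**
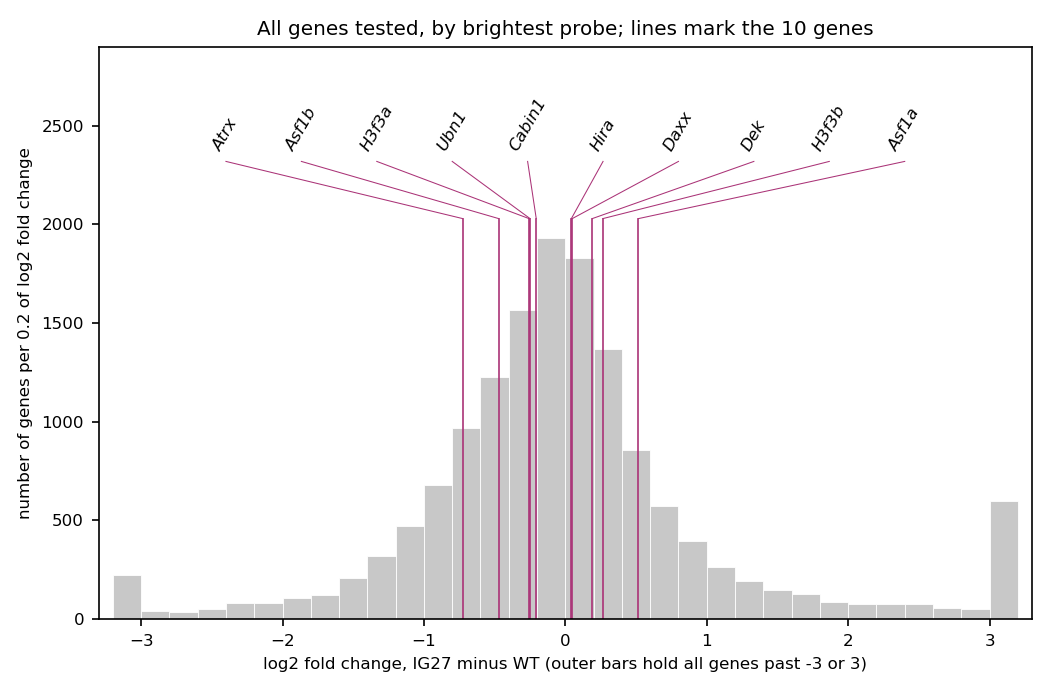
Number of genes by difference (log2, IG27 minus WT, brightest probe) in bins of 0.2, over all 14897 genes tested, with the outer bars holding all genes past -3 or 3 and lines marking the 10 genes. The 10 lie between -0.73 and 0.52, in the central part of the distribution.

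The wider machinery that supplies H3 was described by a list of 24 further chaperones, importers and assembly factors. All 24 were tested, and 6 were called higher (25%), 10 lower (41.7%) and 8 not, near the 29.7% and 39% of all genes. Their median was -0.07, equal to that of all genes to 2 decimals. Arrays did not overlap in 17 of the 24, beside 75.8% of all genes.

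The lower ones include factors that escort new histones. *Dnajc9*, a heat shock co-chaperone that holds H3 with H4, gave 6.31, 6.13 and 6.29 in WT cells and 4.82, 4.63 and 4.59 in IG27 cells. Its difference was -1.56 ± 0.09 (SE, adjusted p = 2.35e-05), and its other probe differed by -1.51. *Ipo4*, the importin that brings H3 with H4 into the nucleus, gave 5.03, 4.99 and 5.02 against 3.64, 3.64 and 3.75, a difference of -1.34 (adjusted p = 6.47e-06). These 2 genes, with *Cdan1*, changed more than any of the 10. *Cdan1*, whose product codanin-1 binds ASF1 in the cytoplasm, gave 0.07, 0.02 and 0.08 against -1.33, -1.10 and -1.17, a difference of -1.26 (adjusted p = 2.82e-05). *Rbbp7*, a histone-binding WD40 protein of several chromatin complexes, differed by -0.64. *Ubn2*, the paralog of *Ubn1*, differed by -0.58.

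The higher ones were moderate in size. *Spty2d1*, a histone chaperone related to yeast Spt2, gave 0.52, 0.39 and 0.61 in WT cells and 1.06, 1.15 and 1.29 in IG27 cells, a difference of 0.66 ± 0.09 (SE, adjusted p = 0.000887). *Rbbp4*, a CAF-1 subunit and the paralog of *Rbbp7*, rose by 0.44, *Nasp*, which keeps a reserve of soluble H3 and H4, by 0.40, and *Chaf1b*, another CAF-1 subunit, by 0.38. *Tonsl*, which recognizes new H4 behind the replication fork, rose by 0.28. With the median of each array as the scale, only 1 of the 24 was called higher and 14 lower. Among the genes not called, the probes of a gene differed most for *Mms22l* (0.01 to 1.63), *Npm1* (0.05 to 1.05) and *Nap1l4* (-0.07 to 0.41). Those of *Chd1* ran from -0.31 to -0.01 and those of *Supt6* from -0.08 to 0.09.

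**Figure D5:**
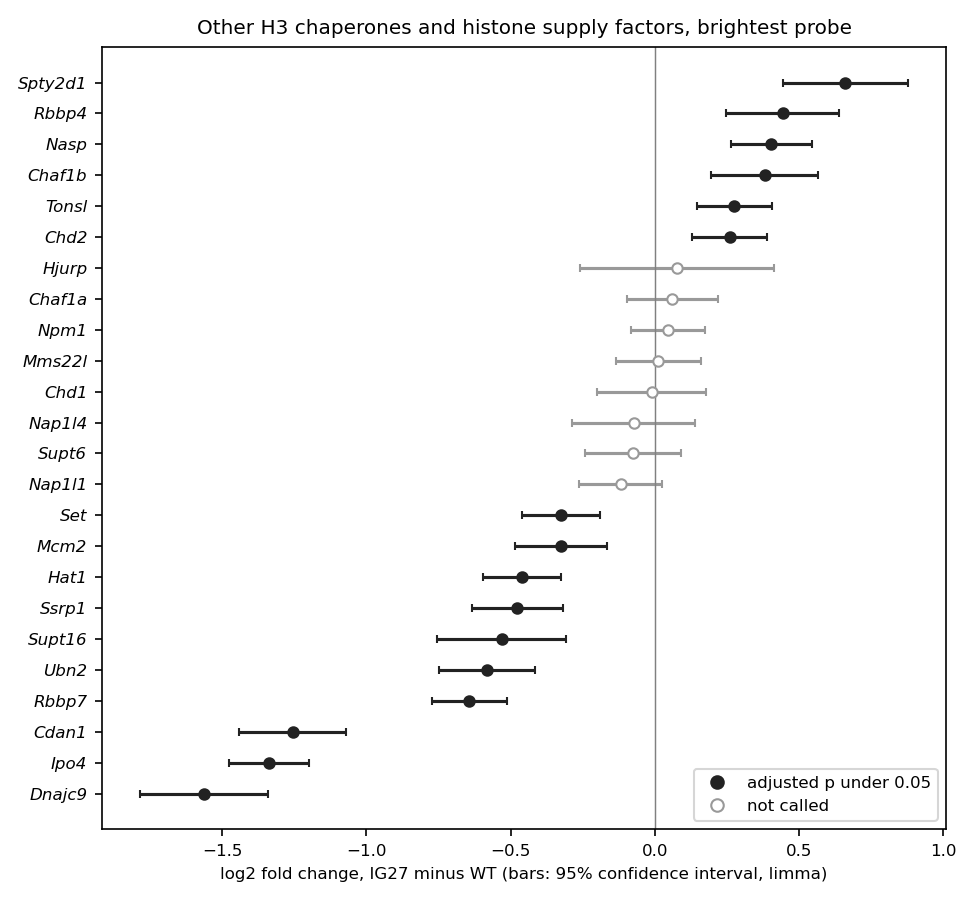
Difference of 24 other H3 chaperones and histone supply factors by brightest probe (log2, IG27 minus WT) with the 95% confidence interval of limma, filled where the adjusted p was under 0.05. *Dnajc9*, *Ipo4* and *Cdan1* stand apart at -1.56 to -1.26, and the 6 called higher lie at 0.26 to 0.66.

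Partners of ATRX and DAXX, readers of H3.3 and kinases of ASF1 made a list of 16 genes, of which 3 were called higher (18.8%) and 7 lower (43.8%), beside 29.7% and 39% of all genes, with a median of -0.14. *Pml*, which builds the nuclear bodies where DAXX gathers, gave 2.40, 2.41 and 2.46 in WT cells and 1.56, 1.59 and 1.61 in IG27 cells, a difference of -0.83 (adjusted p = 3.07e-05). *Tlk1*, a kinase of ASF1, differed by -0.95 on its brightest probe and by -0.12 on another.

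Of the 3 higher, *Sp100*, another component of the PML bodies, gave -2.01, -2.06 and -1.89 against -0.56, -0.58 and -1.42. The difference was 1.13 (adjusted p = 0.00673), and IG27 replicate 3 lay nearer to the WT arrays than to the other IG27 arrays. *Cbx1*, a heterochromatin protein HP1, and *Usp7*, a deubiquitinase that binds DAXX, were higher by 0.33 and 0.28.

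The median signal of the arrays was 55.4 to 62.9 in WT cells and 67 to 77.6 in IG27 cells, without overlap. On the 5 arrays with complete scanner output, 58.8% to 61.2% of probes were well above background and none was saturated, and the number of arrays limits the precision. The scanner output of IG27 replicate 2 is cut short, and its values come from the deposited value table. WT replicates 1 and 3 lay in row 1 of the slide and the other 4 arrays in row 2. Against WT replicate 2 alone, the only WT array in row 2, the mean of the IG27 arrays differed by -0.87 for *Atrx*, 0.50 for *Asf1a*, -0.48 for *Asf1b*, 0.37 for *H3f3b* and -0.12 for *H3f3a*. With the row as a block *H3f3a* was not called (adjusted p = 0.32).

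The label of glial cells was checked against markers. Of 13 astrocyte and glial progenitor genes 11 were well above background on every WT array and 12 on both IG27 arrays with flags. The microglial *Cx3cr1*, the endothelial *Cdh5*, *Cldn5* and *Tek*, the neuronal *Rbfox3*, *Syt1* and *Gad1*, the oligodendrocyte *Mobp* and the mural and fibroblast *Rgs5*, *Lum* and *Col1a2* were in neither group well above background on all arrays with flags. Other markers differed between the groups. Signals were summed over the tested markers of a list only, in units of the 75th percentile of an array. For the 2 tested of 5 endothelial markers the sum was 0.161 to 0.178 in WT cells and 2.58 to 2.65 in IG27 cells. Of the 5, 1 was well above background on every WT array and 2 on both IG27 arrays with flags. The rise of this sum was that of *Kdr*, a receptor for VEGF. The mean value of *Kdr* was -7.97 in WT cells, near background, and 1.31 in IG27 cells, so the size of its rise is uncertain. For 3 tested of 6 fibroblast and mural markers the sum was 126.1 to 128.8 in WT and 64.3 to 69.6 in IG27 cells. Of the 6, 2 were well above background in WT cells and 3 in IG27 cells. Among the 3 tested, 2 were called lower and 1, *Dcn*, higher by 3.58. The mean value of *Dcn* was -7.63 in WT cells, near background, and -4.04 in IG27 cells, so the size of its rise is uncertain. The 13 glial markers summed to 299.2 to 314 in WT cells and 232.7 to 244.8 in IG27 cells, a sum that rests on the brightest of them, and by gene 6 of the 13 were called higher and 4 lower, with a median difference of 0.61. For the 4 tested of 5 oligodendrocyte markers the sums were 13.9 to 15.2 and 17.3 to 18.2. In each group 4 of the 5 were well above background. Sums of the 5 tested of 6 microglial markers were 14.6 to 15.6 and 13.9 to 14.4. Of these 6, 4 and 5 were well above background. Sums of the 3 tested of 6 neuronal markers were 5.53 to 6.78 and 5.45 to 6.16. Of these 6, 2 and 3 were well above background. The part of these differences in the values of the 10 genes was not tested.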

How the data were processed

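Cy3-labeled RNA of 3 WT and 3 IG27 dishes was read on 6 Agilent mouse arrays of 1 slide. The authors read the slide with Feature Extraction (version 10.7.3.1 per the file headers, 9.1 in the submitters' processing notes) and deposited the processed signal, an intensity on a linear scale, with no scaling between arrays. For IG27 replicate 2 the scanner file breaks off at 285 of 62976 spots. Its values came from the deposited value table, which equals the scanner output in all 56305 single-spot probes of the other arrays and in the 255 that can be compared for this array (relative tolerance 1e-04). That table has WT replicates 2 and 3 exchanged, and samples were taken as the scanner files name them.

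Outlier spots by the software's own flag (107 to 210 on a complete array) were dropped and the spots of a probe averaged. Each array was then scaled by subtracting its 75th percentile on the log2 scale. Probes well above background on all WT arrays, or on all IG27 arrays that carry the flag, entered the fit with limma (version 3.58.1, R 4.3.3, lmFit and eBayes, two-sided, Benjamini-Hochberg over 34058 probes). Probes were named through RefSeq accessions with a GRCm38.p6 table (32994 probes, 22911 genes), whereas the file headers name mm9, so the table gave names and chromosomes only. Promoter windows are from RefSeq. The steps were tested on simulated data.

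The 10 genes and all lists (other H3 chaperones, partners and readers, proliferation, cell type markers) were chosen with earlier results of these data known. Genes named are the 10, the 5 largest called rises and falls without overlap of the other H3 chaperones, up to 3 each of the partners and up to 2 each of the proliferation list. The values of 1 gene of the partner list are not reported here. *Mms22l*, *Npm1*, *Nap1l4*, *Kdr* and *Dcn* were named after their values were seen. Alternatives were other scales and background correction, filters, outlier spots kept, eBayes with trend, replicate and slide row blocks, each array left out, 1 probe per gene, the mean of probes and the methods' unadjusted threshold of 0.05. Normexp correction ran on median signals, as the files hold no mean signals, with an offset of 50.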

Additional observations from a re-analysis of the deposited data

How the results depend on the processing

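Over the 10 genes and the alternative settings, 167 values kept direction and side of the threshold, 15 gained a call, 13 lost it and 5 changed sign. *Atrx*, *Asf1a* and *Asf1b* kept their calls in all 20 settings and *H3f3b* in 18, the exceptions being the median scale and no filter on dim probes (adjusted p = 0.051). The arrays with complete scanner output and leaving out IG27 replicate 2 are the same fit, counted under both names. *H3f3a* lost its call in 11, among them normexp (-0.11, adjusted p = 0.171), no filter (adjusted p = 0.0809) and the slide row (-0.12). The changes of sign, none of them called, were *Hira* at -0.20, *Daxx* at -0.19 and *Dek* at -0.0497 with the median scale, and *Hira* at -0.0086 without IG27 replicate 1 (-0.0086 to 0.0907 over each array left out) and at -0.0048 with the mean of its probes. Under quantile normalization 5 of the 10 genes were called higher, with *Hira* (adjusted p = 0.0489), *Daxx* and *Dek* added. With the median scale 1 was higher and 5 lower, and 1 of the other chaperones was higher. With no filter 1 was higher, and with a variance trend 5 were lower. The filter and the trend change the number of probes tested or the variance prior. The median scale moves all probes alike, with the median difference of all probes going from -0.0035 to -0.24. For the other settings the cause was not tested. Leaving out each array gave 2 higher and 2 to 4 lower genes of the 10, 6 higher and 10 lower other chaperones, and 20160 to 20705 called probes against 21863. Deviations of same-numbered dishes from their group means were nearly uncorrelated (0.008, 0.02 and 0.06). No pairing by number was seen, though 3 dishes per group cannot exclude one. With the replicate block 21188 probes were called, with 2 of the 10 genes higher and 4 lower, *Ubn1* being added at -0.25 (adjusted p = 0.0472), and WT replicate 1 correlated best with IG27 replicate 3. A block with WT replicates 2 and 3 as the value table labels them, added after seeing the data, called 20662 probes and left *H3f3a* at an adjusted p of 0.0575. Signal near background limits the 3 untested *Cabin1* probes and the dim *H3f3a* probe.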
